A study of Homo sapiens with 18 samples.

Results

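Chromatin accessibility at 8 cytokine genes was examined in Ccd18-Co, an established line of human colon fibroblasts: the IL-6 family genes IL6, IL11, LIF and CLCF1, the IL-10 family gene IL24, and the colony-stimulating factor genes CSF1, CSF2 and CSF3. The members were the consensus ATAC-seq peaks that overlap the body of one of these genes or the 20 kb on either side of it, and 96 of the 334857 peaks met this rule. IL6 had 6 peaks, LIF 8, CSF3 10, CSF2 12, IL11 and IL24 14 each, and CLCF1 and CSF1 16 each. A peak is named by its gene and its order along the chromosome. The 18 libraries formed 3 groups of 6: unstimulated cells, cells given a cytokine mix and then the solvent DMSO, and cells given the mix and then belinostat, an inhibitor of histone deacetylases. The mix held TNF, OSM and IL-17A at 10 ng/ml each and IL-1β at 0.1 ng/ml, and was given in 3 pulses of 72 h with 96 h of recovery. After 1 week of rest, DMSO or 250 nM belinostat was given for 5 days, and nuclei were taken 2 weeks later. These doses are those of the labels, the study's text gives others for belinostat and IL-1β in places, and the labels do not say how the unstimulated cells were handled. All libraries came from 1 cell line, and the labels do not say whether replicates were separate cultures, so p-values measure the spread between these samples, which may be technical. The DMSO libraries were compared with the unstimulated libraries (the cytokine contrast), the belinostat libraries with the DMSO libraries (the belinostat contrast), and the belinostat libraries with the unstimulated libraries (the residual contrast). The contrasts share libraries and are not independent of each other.

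On hg38, IL6 (ENSG00000136244.12) lies at chr7:22725884-22732002 on the plus strand, IL11 (ENSG00000095752.7) at chr19:55364382-55370463 on the minus strand and LIF (ENSG00000128342.5) at chr22:30240453-30246759 on the minus strand. CLCF1 (ENSG00000175505.11) lies at chr11:67364168-67374177 on the minus strand and IL24 (ENSG00000162892.16) at chr1:206897443-206904139 on the plus strand. CSF1 (ENSG00000184371.14) lies at chr1:109910242-109930992, CSF2 (ENSG00000164400.6) at chr5:132073789-132076170 and CSF3 (ENSG00000108342.13) at chr17:40015361-40017813, all on the plus strand. Of the 96 peaks, 37 were upstream of the gene, 36 downstream, 12 in introns, 4 over other exons and 7 over annotated starts. All 96 passed the filter on low values, with 50 to 5549 fragments over the 18 libraries.

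These cytokines are how stromal cells call on and shape other cells. IL-6, IL-11, LIF and CLCF1 bind receptor complexes that contain gp130 (the product of IL6ST) and signal through JAK kinases and STAT3. IL-24 uses receptors with an IL-20 receptor chain and also activates STAT3. The colony-stimulating factors govern myeloid cells: CSF1 (M-CSF) maintains macrophages, CSF2 (GM-CSF) acts on granulocytes, monocytes and dendritic cells, and CSF3 (G-CSF) drives the output of neutrophils. Fibroblasts of inflamed gut are known to make several of them, and their genes are classical targets of NF-kB, AP-1 and C/EBP factors. ATAC-seq reports where a transposase can reach the DNA, not how much RNA is made.

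Fragments in peaks ranged from 7077321 to 11352032 per unstimulated library, from 6488975 to 8066642 per DMSO library and from 4661678 to 6370845 per belinostat library. The member peaks took 4037 to 6202, 3599 to 4420 and 2564 to 3392 of them. The share of fragments in the 10000 strongest peaks fell in the same order, with ranges of 35.4% to 39.0%, 31.8% to 35.2% and 28.4% to 34.5%, and belinostat 1 had the highest share of its group. Over all peaks, weak peaks tended to rise and strong peaks to fall from one group to the next. Values are therefore given with TMM factors, which set 1 scale per library, and beside them with loess offsets, which also take out the trend with peak strength. Peaks over annotated starts were found for 8 of 8 fibroblast markers, at 7.64 to 67.3 CPM per kb of peak in unstimulated cells, for 3 of 5 epithelial markers at 3.17 to 5.48, for 1 of 5 leukocyte markers at 8.86, for 3 of 3 smooth muscle markers at 2.25 to 11.1 and for 0 of 4 endothelial markers. CPM are the fragments of a peak scaled by the TMM-adjusted size of its library. In such bulk libraries, a smaller share of open cells and less opening per cell cannot be told apart.

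Some sequences are shown first as a description, for 4 peaks described further on and for 3 promoters that carry words of known factors. The peak stretches are hg38 reference sequence of the plus strand, up to 300 bases around the peak centre, and capitals mark a match to 1 of 5 short words listed with the sequence results. The opened peak upstream of IL24 (chr1:206890524-206890823), the strongest IL24 peak, which lies nearer the gene (chr1:206896134-206896433), the peak downstream of CSF1 that changed under belinostat (chr1:109934046-109934345) and a weak opened peak downstream of IL11 (chr19:55362649-55362876) read as follows.
IL24_peak4: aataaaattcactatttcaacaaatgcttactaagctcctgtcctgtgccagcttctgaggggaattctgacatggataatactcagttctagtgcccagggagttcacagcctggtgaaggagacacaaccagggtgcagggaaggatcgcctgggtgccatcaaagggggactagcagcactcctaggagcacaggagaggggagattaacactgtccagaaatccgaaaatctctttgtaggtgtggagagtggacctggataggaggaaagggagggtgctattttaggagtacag
IL24_peak5: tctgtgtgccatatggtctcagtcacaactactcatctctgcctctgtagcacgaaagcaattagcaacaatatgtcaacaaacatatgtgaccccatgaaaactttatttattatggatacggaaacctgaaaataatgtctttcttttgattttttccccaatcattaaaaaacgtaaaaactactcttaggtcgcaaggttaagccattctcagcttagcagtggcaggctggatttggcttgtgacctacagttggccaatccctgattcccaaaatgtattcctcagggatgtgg
CSF1_peak15: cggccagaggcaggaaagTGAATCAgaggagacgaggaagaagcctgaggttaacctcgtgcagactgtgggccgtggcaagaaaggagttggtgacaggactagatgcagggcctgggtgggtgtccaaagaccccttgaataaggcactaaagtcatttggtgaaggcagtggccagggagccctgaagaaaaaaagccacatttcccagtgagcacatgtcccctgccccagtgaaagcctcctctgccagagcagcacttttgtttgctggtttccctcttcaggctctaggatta
IL11_peak6: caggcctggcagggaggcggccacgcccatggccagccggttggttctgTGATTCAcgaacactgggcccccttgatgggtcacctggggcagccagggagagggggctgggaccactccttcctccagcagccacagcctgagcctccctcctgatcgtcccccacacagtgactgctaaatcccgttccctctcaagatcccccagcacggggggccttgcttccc

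Promoters of 4 of the 8 genes (IL6, IL11, IL24 and CSF2) were matched by symbol in RefSeq (build GRCh38.p14), and the 250 bases before the start are shown for the 3 that hold a word, read 5′ to 3′ on the strand of the gene. They lie at chr7:22726950-22727199 on the plus strand for IL6, at chr19:55370464-55370713 on the minus strand for IL11 and at chr5:132073539-132073788 on the plus strand for CSF2. Capitals mark a C/EBP word and an NF-kB word in IL6, an AP-1 word in IL11 and a STAT word in CSF2.
IL6: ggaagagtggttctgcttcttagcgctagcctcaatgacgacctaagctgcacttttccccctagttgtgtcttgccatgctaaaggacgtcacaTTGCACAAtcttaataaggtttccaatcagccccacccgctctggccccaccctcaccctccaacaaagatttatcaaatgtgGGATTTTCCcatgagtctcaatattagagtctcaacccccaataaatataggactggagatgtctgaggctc
IL11: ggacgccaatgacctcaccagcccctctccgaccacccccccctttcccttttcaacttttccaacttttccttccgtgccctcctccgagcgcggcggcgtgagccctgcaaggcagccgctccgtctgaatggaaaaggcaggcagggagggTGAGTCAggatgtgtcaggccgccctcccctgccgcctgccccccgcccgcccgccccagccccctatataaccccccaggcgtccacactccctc
CSF2: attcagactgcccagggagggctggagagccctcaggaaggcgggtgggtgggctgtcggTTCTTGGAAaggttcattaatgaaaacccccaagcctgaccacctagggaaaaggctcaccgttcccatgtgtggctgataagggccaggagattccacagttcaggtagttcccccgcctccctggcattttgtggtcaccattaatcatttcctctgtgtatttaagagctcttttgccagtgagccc

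The start sites of these genes spanned a wide range of openness before any treatment. Per kb of peak in unstimulated cells, the 2 peaks over starts of IL11 had 29.5 ± 4.58 CPM (IL11_peak9, SD, n = 6) and 29.0 ± 4.25 CPM (IL11_peak10), and the start of CLCF1 had 27.4 ± 1.70 CPM. These 3 peaks overlapped in their libraries and stood above the start of IL6 (16.4 ± 1.37 CPM per kb) and the start of CSF1 (15.5 ± 1.49 CPM per kb), which overlapped with each other. LIF followed with 6.56 ± 0.858 CPM per kb and CSF2 with 3.59 ± 0.775 CPM per kb, each below its upper neighbour in every library. Among 17363 peaks over starts of protein-coding genes, whose median was 17.1 CPM per kb, IL11_peak9 stood at the 75.4th percentile, CLCF1 at the 72.2nd, IL6 at the 48.4th, CSF1 at the 45.9th, LIF at the 23.4th and CSF2 at the 13.7th. No peak lay over an annotated start of IL24 or CSF3. The nearest strong peaks there were IL24_peak5, whose centre was 1160 bp upstream of the IL24 start, and CSF3_peak7, 1511 bp upstream of the CSF3 start. In DMSO libraries CSF1 (13.7 ± 2.14 CPM per kb) and IL6 (13.2 ± 1.54 CPM per kb) changed places within their overlap, and in belinostat libraries the range of LIF overlapped with those of both IL6 and CSF2. The CLCF1 start peak also covers a start of the gene model ENSG00000256514.

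**Figure D1:**
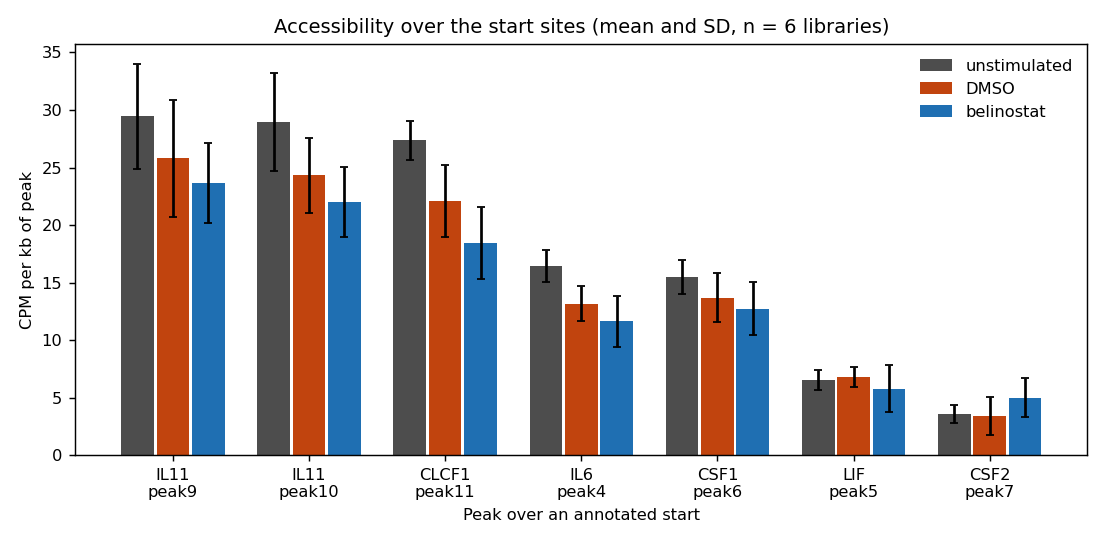
Accessibility over annotated starts, in CPM per kb of peak (vertical axis), for the 7 start peaks of 6 genes; bars are means of 6 libraries per group and lines are the SD. The peaks of IL11 and CLCF1 are the tallest and that of CSF2 is the shortest, at 3.59 CPM per kb in unstimulated cells.

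The cytokine contrast set cells given pulses and then DMSO against unstimulated cells. Pulses, solvent and handling cannot be told apart in it. With TMM factors, 7 of the 96 member peaks opened and 13 closed at an adjusted p under 0.05, or 7.29% and 13.5%, beside 9.51% opened and 9.73% closed among all peaks. The median log2 fold change was -0.05 over the members and 0.13 over all peaks. With loess offsets, 5 member peaks opened and 1 closed, beside 2.00% and 1.91% of all peaks, and 3 of the opened (IL24_peak4, IL11_peak5 and IL11_peak6) and 1 of the closed (CSF2_peak12) were called under both scalings. With library totals 15 members opened and 1 closed, beside 16.2% and 3.25% of all peaks. With TMM factors taken from the weaker 50% of peaks the counts were 2 and 37, beside 2.24% and 25.2% of all peaks. The all-peak median moved with these scalings, to 0.34 with totals, -0.30 with the weaker peaks and 0.01 with loess offsets. Strength went with direction: among the 36 members with an average log2 CPM under 1, 6 opened and 1 closed (16.7% and 2.78%), beside 12.2% and 0.800% of all peaks in that class, and among the 20 members at 3 or more, 0 opened and 9 closed. Of all peaks in the same strong class 66.4% closed, against 45% of the members. Without unstimulated 6, which had the highest share of strong peaks, 7 member peaks closed and 5 opened, beside 6.18% and 5.52% of all peaks. By locus, opened and closed peaks numbered 3 and 3 at IL11, 1 and 1 at IL24, 1 and 2 at CSF1, 1 and 1 at CSF2, 1 and 0 at CSF3, 0 and 1 at LIF, 0 and 5 at CLCF1 and 0 and 0 at IL6. The members outside the naming rule, apart from a few singled out for the processing checks, numbered 62. They ranged from -0.63 to 1.56 on the log2 scale, with a median of -0.01. CSF2_peak12, one of those singled out, had -0.85.

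**Figure D2:**
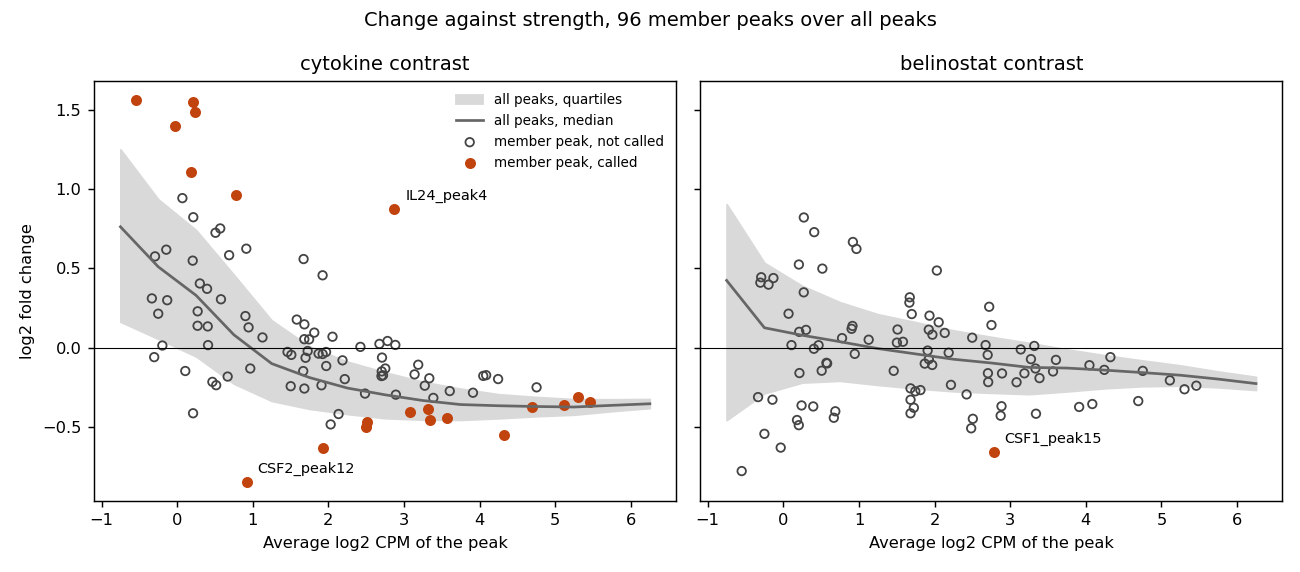
Log2 fold change (vertical axis) of the 96 member peaks against their average log2 CPM (horizontal axis) in the cytokine and belinostat contrasts, drawn over the median and quartiles of all peaks in steps of strength. Filled points are called. IL24_peak4, with a change of 0.87, lies above the upper quartile of peaks of its strength in the cytokine panel, and CSF1_peak15, with -0.66, is the filled point in the belinostat panel.

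IL24_peak4 was the one opened member of more than low strength. It spans chr1:206890245-206891101 (857 bp), between genes, with its centre 6770 bp upstream of the IL24 start, and is stronger than 90.4% of all peaks. Unstimulated libraries had 3.86, 5.20 and 5.80 CPM (lowest, median, highest), DMSO libraries 7.28, 9.33 and 11.2, and belinostat libraries 4.99, 6.88 and 8.82. All 6 DMSO libraries were above all 6 unstimulated ones, and belinostat libraries overlapped with both. The cytokine log2 fold change was 0.87 ± 0.15 (SE, adjusted p 1.00e-05), a 1.83-fold rise, and it was 1.17 with loess offsets (adjusted p 2.97e-11). It was called in 26 of 27 alternatives and missed the threshold with TMM over the weaker peaks (0.43, adjusted p 0.132). In the belinostat contrast the same peak had a log2 fold change of -0.43 ± 0.15 (adjusted p 0.101), and of -0.50 without belinostat 1 (adjusted p 0.0351). Both contrasts use the same DMSO libraries. Its printed stretch holds none of the 5 words. IL24_peak14, another member downstream, singled out after its values were seen, had a cytokine log2 fold change of 0.56 (adjusted p 0.0563) and of 0.71 with loess offsets (adjusted p 0.0473). A run of 12 bases occurs 11 times in IL24_peak14, so fragments there may be hard to place.

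The other opened members were weak. IL11_peak6 and IL11_peak5 lie downstream of IL11, within the body of GARIN5B, with centres 7701 and 8549 bp from the IL11 start. IL11_peak6 (chr19:55362649-55362876) had 0.0981, 0.432 and 0.956 CPM in unstimulated, 0.59, 1.17 and 2.19 in DMSO and 0.401, 0.855 and 1.76 in belinostat libraries, from 1 to 15 fragments per library. The groups overlapped, but the higher DMSO libraries gave a log2 fold change of 1.55 ± 0.38 (adjusted p 0.00242). With loess offsets it was 1.25 (adjusted p 0.0380). It was called in all 27 alternatives. IL11_peak5, singled out after its values were seen, had 0.161, 0.468 and 0.797 CPM in unstimulated and 0.729, 1.33 and 1.73 in DMSO libraries, with a log2 fold change of 1.48 ± 0.36 (adjusted p 0.00244). A run of 12 bases recurs at least 4 times in its 224 bases, as in 8 member peaks and 4.16% of all peaks, so fragments there may be hard to place. The 8 include IL24_peak14 and the start peaks CLCF1_peak11 and CSF1_peak6. CSF2_peak8, with its centre 5014 bp downstream of the start of CSF2, rose by 1.40 ± 0.41 (adjusted p 0.0104) and CSF3_peak6, 6891 bp upstream of CSF3, by 1.11 ± 0.37 (adjusted p 0.0235) on the log2 scale. Neither was called with loess offsets (adjusted p 0.122 and 0.196), and CSF3_peak6 lost its call without unstimulated 1, unstimulated 6 or DMSO 2 (adjusted p 0.0543, 0.0774 and 0.0762). The other opened members, IL11_peak4 and CSF1_peak16, named after their values were seen, were not called with loess offsets either.

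Closed members were mostly strong peaks at IL11, LIF, CLCF1, IL24 and CSF1. LIF_peak7 (chr22:30255842-30256443), 9383 bp upstream of the start of LIF, had 13.0, 14.6 and 15.5 CPM in unstimulated, 9.95, 10.6 and 11.4 in DMSO and 7.72, 9.49 and 11.9 in belinostat libraries. Every DMSO library was below every unstimulated one, with a log2 fold change of -0.45 ± 0.12 (adjusted p 0.00703) and of -0.12 with loess offsets (adjusted p 0.510). IL24_peak5 (chr1:206895764-206896803), the strongest peak at IL24, had 29.2, 30.9 and 40.7 CPM in unstimulated, 23.0, 24 and 27.8 in DMSO and 17.0, 18.9 and 22.3 in belinostat libraries. These 3 groups did not overlap, and the cytokine log2 fold change was -0.38 ± 0.11 (adjusted p 0.00905), against 0.01 with loess offsets. IL24_peak4 and IL24_peak5, both upstream of the same gene, were called in opposite directions with TMM factors. CSF1_peak8, in an intron of CSF1, had 11.1, 11.8 and 17.1 CPM in unstimulated and 7.85, 9.11 and 11.5 in DMSO libraries, a log2 fold change of -0.45 ± 0.13 (adjusted p 0.00927). CSF1_peak14, downstream of CSF1, fell by 0.39 ± 0.13 (adjusted p 0.0238) and the start of CLCF1 (CLCF1_peak11) by 0.31 ± 0.11 (adjusted p 0.0271) on the log2 scale. None of these was called with loess offsets.

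Several closed peaks belong as much to other genes. IL11_peak13 and IL11_peak14 cover starts of RPL28, a ribosomal protein gene, CLCF1_peak4 covers a start of POLD4, a DNA polymerase subunit gene, and CLCF1_peak16 a start of RAD9A, a checkpoint gene. Their log2 fold changes were -0.36 ± 0.11 for IL11_peak13 (adjusted p 0.0112), -0.34 ± 0.10 for CLCF1_peak4 (adjusted p 0.0127) and -0.55 ± 0.12 for CLCF1_peak16 (adjusted p 3.63e-04). Accessibility in a shared peak cannot be assigned to either gene. Calls near the threshold depended on single libraries. Without unstimulated 6, IL11_peak12, IL24_peak5, CLCF1_peak4, CLCF1_peak11 and CSF1_peak8 were not called (adjusted p 0.0518 to 0.0764). Without DMSO 5, IL11_peak12, CLCF1_peak4, CLCF1_peak11 and CSF1_peak14 were not called (adjusted p 0.0501 to 0.0889). CLCF1_peak11 also lost its call without unstimulated 1, unstimulated 3, DMSO 1 or DMSO 4 (adjusted p 0.0543 to 0.0889), and CSF1_peak14 without unstimulated 3, unstimulated 5 or DMSO 1 (adjusted p 0.0520 to 0.0595).

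CSF2_peak12, a weak peak with its centre 21720 bp downstream of the start of CSF2 and singled out after its values were seen, was the closed member called under both scalings. It had 1.27, 1.94 and 2.75 CPM in unstimulated, 0.884, 1.08 and 1.31 in DMSO and 1.20, 1.59 and 2.43 in belinostat libraries. DMSO libraries were lowest, with some overlap, and the log2 fold changes were -0.85 ± 0.26 (adjusted p 0.0161) with TMM factors and -0.90 with loess offsets (adjusted p 0.0320). It was not called without unstimulated 4 (-0.68, adjusted p 0.0873), with DESeq2 (adjusted p 0.0563) or with library totals (adjusted p 0.0800). Its neighbour CSF2_peak11, the strongest peak at CSF2, changed by -0.17 ± 0.12 (adjusted p 0.281).

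At IL6, a main cytokine of inflamed stroma, no peak was called in the cytokine contrast. The peak over its start (IL6_peak4, chr7:22726807-22727546), which holds the promoter printed above, had 11.1, 12.3 and 13.2 CPM in unstimulated, 8.32, 9.68 and 11.5 in DMSO and 6.01, 8.73 and 10.9 in belinostat libraries. Each group overlapped with the next, and the cytokine log2 fold change was -0.32 ± 0.13 (adjusted p 0.0665), or 0.01 with loess offsets (adjusted p 0.978). All belinostat libraries were below all unstimulated ones. The cytokine value passed the threshold in 5 alternatives, among them TMM over the weaker peaks (-0.77, adjusted p 0.00281), a fit of the 12 libraries of the contrast (-0.33, adjusted p 0.0402), and fits without DMSO 6 (-0.38, adjusted p 0.0403) or belinostat 1 (-0.32, adjusted p 0.04997). The peak also lies within the annotated body of STEAP1B. The start of IL11 (IL11_peak10, chr19:55369643-55370705) had 26.9, 29.3 and 38.7 CPM, 21.1, 25.7 and 30.8 CPM, and 20.2, 22.6 and 28.9 CPM in the same order, with a cytokine log2 fold change of -0.25 ± 0.11 (adjusted p 0.0901). The start of LIF (LIF_peak5) changed by 0.05 ± 0.19 (adjusted p 0.874), that of CSF1 (CSF1_peak6) by -0.18 ± 0.12 (adjusted p 0.283) and that of CSF2 (CSF2_peak7) by -0.13 ± 0.27 (adjusted p 0.767). At CSF3, the strongest peak (CSF3_peak7) had 7.81, 9.78 and 10.3 CPM in unstimulated and 6.56, 8.95 and 11.4 in DMSO libraries, the latter around the former, with a log2 fold change of -0.11 ± 0.14 (adjusted p 0.603).

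**Figure D3:**
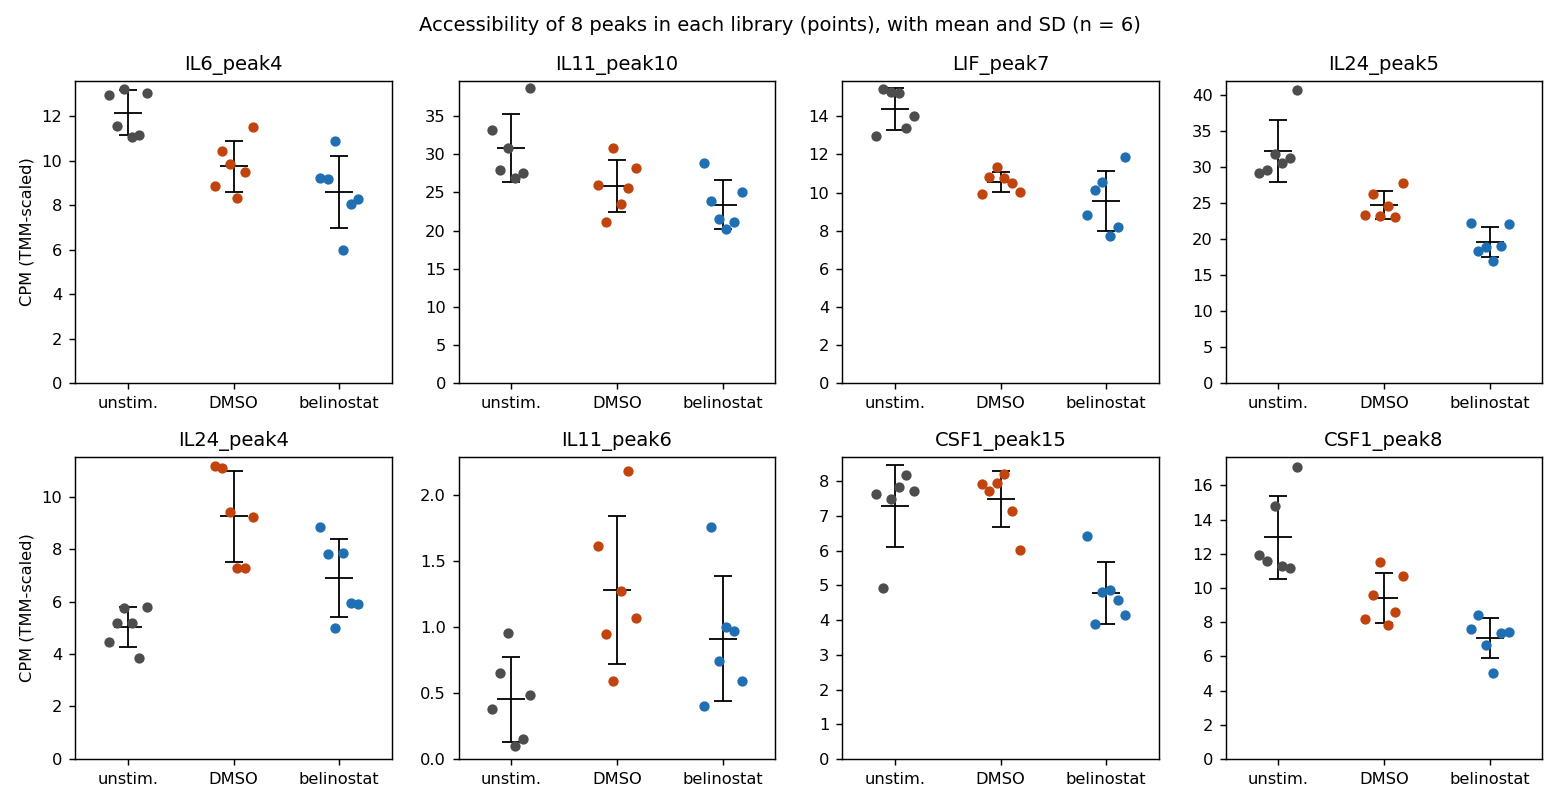
CPM (vertical axis, from 0) of 8 peaks in each of the 18 libraries, as points by group, with the mean and SD (n = 6). IL24_peak4 is highest in DMSO libraries (7.28 to 11.2 CPM), CSF1_peak15 is lowest in belinostat libraries (3.90 to 6.42 CPM), and IL24_peak5 steps down from group to group.

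The belinostat contrast asked what the inhibitor changed in cells that had received cytokines. Of the 96 members 1 closed and 0 opened (1.04% and 0%), beside 1.75% closed and 0.607% opened among all peaks. Before adjustment, 11 members had a p under 0.05 downward and 5 upward in edgeR's test, beside 7.68% and 8.21% of all peaks. DESeq2 called 4 members closed (CSF1_peak15, LIF_peak2, IL24_peak5 and CSF2_peak11) and 0 opened. Among the 140092 peaks to which it gave an adjusted p, 4.52% closed and 0.937% opened. CSF2_peak11 had a log2 fold change of -0.34 in DESeq2 (adjusted p 0.0466) and of -0.36 in edgeR's test (adjusted p 0.103). The median log2 fold change was -0.10 over the members and 0.01 over all peaks. CSF1_peak15 (chr1:109933760-109934630, 871 bp), the closed member, lies past the end of CSF1 with its centre 23346 bp downstream of the gene start. It had 4.93, 7.68 and 8.17 CPM in unstimulated, 6.02, 7.82 and 8.20 in DMSO and 3.90, 4.69 and 6.42 in belinostat libraries. Of the belinostat libraries, belinostat 1 overlapped with the DMSO range and the others were below it. The log2 fold change was -0.66 ± 0.16 (adjusted p 0.00599), a level of 0.634 times that of DMSO, and with loess offsets it was -0.55 at an adjusted p of 0.0148. It was called in 26 of 27 alternatives, the exception being TMM over the weaker peaks (adjusted p 0.0547). The cytokine log2 fold change of this peak was 0.04 ± 0.14 (adjusted p 0.867). Its printed stretch holds an AP-1 word.

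The belinostat count also rose without belinostat 1, the library with the highest share of strong peaks in its group. Without it, 6 members closed (CSF1_peak12, CSF1_peak15, IL24_peak4, IL24_peak5, CLCF1_peak11 and LIF_peak2), beside 2.60% of all peaks. LIF_peak2, the strongest peak at LIF, had 12.4, 14.9 and 17.0 CPM in DMSO and 9.01, 11.1 and 15.6 in belinostat libraries. Its log2 fold change was -0.37 ± 0.13 (adjusted p 0.0993) with all libraries and -0.48 without belinostat 1 (adjusted p 0.0125). IL24_peak5 changed by -0.34 ± 0.11 (adjusted p 0.0969) with all libraries and by -0.37 without belinostat 1 (adjusted p 0.0314). Its belinostat libraries were all below its DMSO libraries. The starts of IL6 and IL11 had log2 fold changes of -0.19 ± 0.14 (adjusted p 0.497) and -0.15 ± 0.11 (adjusted p 0.531), and that of CSF2 had 0.62 ± 0.27 (adjusted p 0.217), with 0.781, 2.24 and 2.72 CPM in belinostat libraries.

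**Figure D4:**
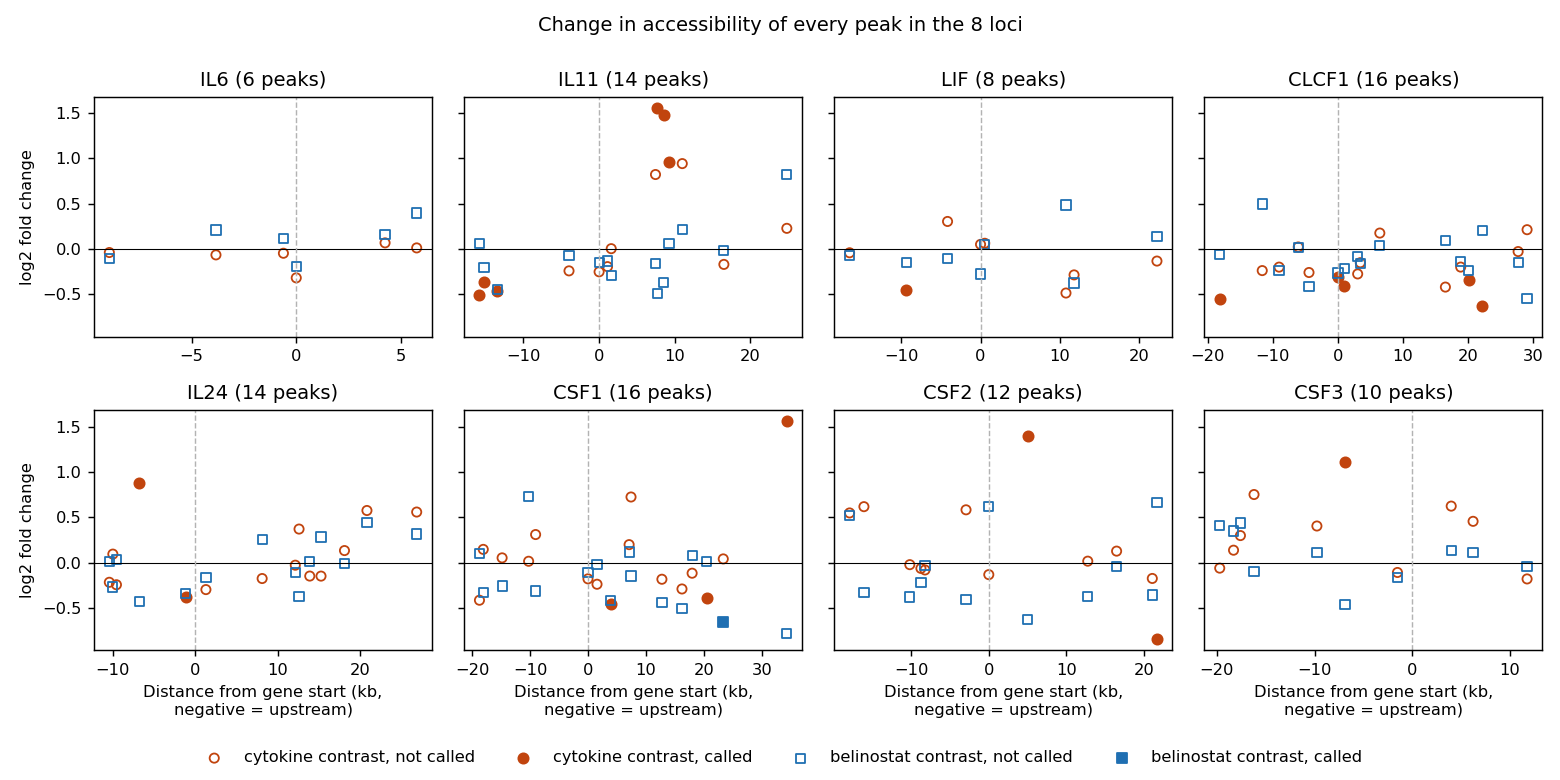
Log2 fold change (vertical axis) of each of the 96 peaks against the distance of its centre from the gene start in kb (horizontal axis, negative upstream), in 1 panel per gene, for the cytokine contrast (circles) and the belinostat contrast (squares). Filled symbols are called: 20 circles and 1 square, CSF1_peak15.

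In the residual contrast 10 members opened and 21 closed with TMM factors (10.4% and 21.9%), beside 16.8% and 13.7% of all peaks. Loess offsets left 6 opened and 2 closed, beside 3.82% and 4.93% of all peaks. Library totals gave 21 and 11, beside 30.4% and 6.31%, and TMM over the weaker peaks 0 and 52, beside 2.64% and 30.9%. Leaving out belinostat 4 left 5 opened and leaving out belinostat 5 left 6, beside 11.2% and 11.4% of all peaks. Those opened under both scalings were IL24_peak4, IL24_peak14 and CSF3_peak9, and those closed were IL11_peak12 and CSF1_peak8. With TMM factors the call of CSF3_peak9 was lost without unstimulated 2, belinostat 5 or belinostat 6 (adjusted p 0.0601 to 0.108). IL11_peak12 (chr19:55383771-55384078), 13461 bp upstream of IL11 within TMEM238, had 6.23, 6.94 and 8.70 CPM in unstimulated, 4.23, 5.07 and 6.02 in DMSO and 2.77, 3.56 and 5.18 in belinostat libraries. Both stimulated groups lay below the unstimulated libraries, and the residual log2 fold change was -0.92 ± 0.17 (adjusted p 4.93e-06), or -0.56 with loess offsets (adjusted p 0.0107). CSF1_peak8 had 5.01, 7.38 and 8.39 CPM in belinostat libraries and a residual log2 fold change of -0.87 ± 0.14 (adjusted p 2.99e-07), or -0.41 with loess offsets (adjusted p 0.0123). IL24_peak4 was also called opened against unstimulated cells, by 0.44 ± 0.16 (adjusted p 0.0266) on the log2 scale and by 0.85 with loess offsets (adjusted p 7.64e-06), but with TMM over the weaker peaks its value was -0.13 (adjusted p 0.704). With TMM factors that call was lost without unstimulated 1, unstimulated 5, belinostat 1, belinostat 2 or belinostat 4 (adjusted p 0.0579 to 0.0735). The start of IL6 closed by -0.51 ± 0.14 (adjusted p 0.00228), but its value was -0.06 with loess offsets (adjusted p 0.793).

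Summed over all peaks of a locus, 4 of the 8 genes were lower and 0 higher in the cytokine contrast, beside 67.8% lower and 10.5% higher among 19572 protein-coding genes. With loess offsets 0 were lower and 3 (IL24, CSF2 and CSF3) higher, beside 11.7% and 16.0% of all genes. Library totals also gave 0 lower and 3 higher, beside 20.9% and 19.8%, and TMM over the weaker peaks gave 8 lower, where 86.3% of all genes were lower. CLCF1 had 195, 209 and 221 CPM in unstimulated and 143, 170 and 192 in DMSO libraries, with no overlap and a log2 fold change of -0.31 ± 0.07 (adjusted p 9.78e-04). Peaks over starts of other genes held 58.5% of that sum. That share includes CLCF1_peak11, the start of CLCF1 itself, because it also covers a start of ENSG00000256514. LIF had 51.1, 53.2 and 54.5 CPM against 39.8, 44 and 51.0, with a log2 fold change of -0.25 ± 0.08 (adjusted p 0.00804). IL11 changed by -0.23 ± 0.07 (adjusted p 0.00429) and CSF1 by -0.18 ± 0.07 (adjusted p 0.0202). Peaks over starts of other genes held 35.9% of the IL11 sum. No call of a summed locus changed when such peaks were left out, which at CLCF1 also left out its own start peak. With 5 kb windows IL11 (-0.11, adjusted p 0.169) and LIF (-0.11, adjusted p 0.510) were not called. IL24 was then called lower (-0.33, adjusted p 0.00137) and CSF2 higher (0.44, adjusted p 0.0192). The call of CSF1 was lost without unstimulated 3, unstimulated 6 or DMSO 1 (adjusted p 0.0539 to 0.0715). IL6 (-0.15 ± 0.09), IL24 (-0.10 ± 0.06), CSF2 (-0.05 ± 0.07) and CSF3 (0.10 ± 0.08) were not called with TMM factors. The median over all genes was -0.25, and 6 of the 8 genes lay above it.

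In the belinostat contrast 0 of the 8 summed loci were called in edgeR's test, beside 2.31% of genes lower and 0.153% higher, and DESeq2 also called 0. Before adjustment the IL11, IL24, CLCF1, CSF1 and CSF2 loci had a p under 0.05, all downward, beside 21.0% of all genes downward and 2.31% upward. The log2 fold changes ran from -0.21 ± 0.07 at CSF2 (adjusted p 0.0864) to -0.01 ± 0.09 at IL6 (adjusted p 0.945). Without belinostat 1, IL11, IL24, CLCF1, CSF1 and CSF2 were called lower (-0.25 to -0.16, adjusted p 0.00929 to 0.0440), beside 28.1% of all genes. CSF2 was also called lower without DMSO 4 (-0.26, adjusted p 0.0401). In the residual contrast IL11, LIF, IL24, CLCF1, CSF1 and CSF2 were lower and 0 genes higher, beside 71.6% and 11.8% of genes. With loess offsets 0 were lower and 1, CSF3, was higher (0.25, adjusted p 0.0101), beside 21.3% and 22.9% of genes.

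**Figure D5:**
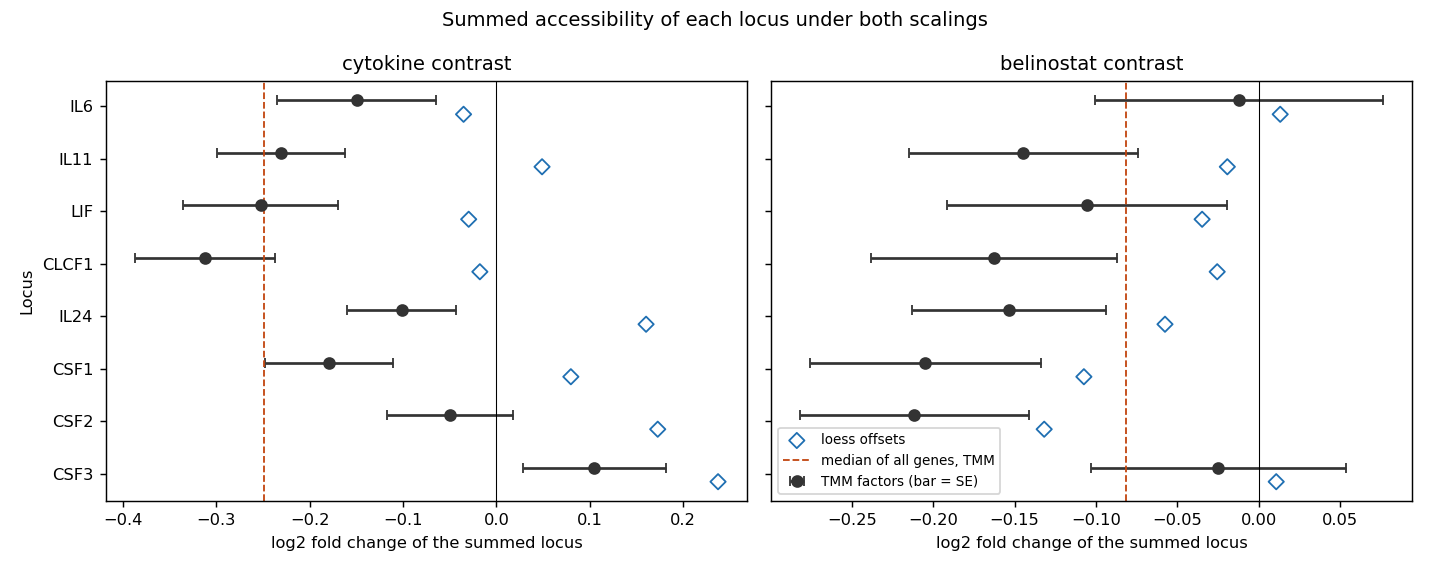
Log2 fold change of the summed accessibility of each locus (horizontal axis) in the cytokine and belinostat contrasts, with TMM factors (dots, bars are the SE) and with loess offsets (diamonds); the dashed line is the median of all genes with TMM factors. Cytokine values run from -0.31 at CLCF1 to 0.10 at CSF3 with TMM factors, and the diamonds lie to the right of the dots.

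The rest of the pathway gave the background to these genes. Of 34 related genes, all measured, 21 were lower and 1 higher in the cytokine contrast, where 67.8% of all genes were lower and 10.5% higher. In the residual contrast 26 were lower and 1 higher, where 71.6% and 11.8% of all genes were. Loess offsets gave 2 lower and 7 higher in the cytokine contrast, beside 11.7% and 16.0% of all genes, and 3 lower and 10 higher in the residual contrast, beside 21.3% and 22.9%. Under belinostat 0 were called in edgeR's test, beside 2.31% lower and 0.153% higher among all genes. With loess offsets 1, IL20RB, was higher (0.24, adjusted p 0.0171), beside 2.85% of all genes. Before adjustment 6 had a p under 0.05 downward and 1 upward in edgeR's test with TMM factors, beside 21.0% and 2.31% of all genes. Of 10 related ligands 4 were lower in the cytokine contrast, of 13 receptors 7 were lower and 1 higher, and of 11 signal proteins and inhibitors 10 were lower. The higher one was CSF2RA, the alpha chain of the GM-CSF receptor. Its locus had 4.99, 10.5 and 13.0 CPM in unstimulated, 14.7, 19.2 and 20.1 in DMSO and 13.4, 20.9 and 24.2 in belinostat libraries, all DMSO libraries above all unstimulated ones, and a cytokine log2 fold change of 0.87 ± 0.15 (adjusted p 2.32e-04), or 0.88 with loess offsets (adjusted p 4.09e-04). The gene lies in a stretch that both sex chromosomes share, so its fragments can match more than 1 place. IL20RA, a chain of the IL-24 receptors, fell by 0.35 ± 0.09 (adjusted p 0.00161) on the log2 scale and was also lower with loess offsets. The other chains differed from it. IL20RB changed by -0.29 ± 0.08 (adjusted p 0.00183), or by -0.06 with loess offsets (adjusted p 0.477). IL22RA1 changed by 0.12 ± 0.08 (adjusted p 0.171), or by 0.29 with loess offsets (adjusted p 0.0165). IL6ST, which encodes gp130, changed by -0.16 ± 0.07 (adjusted p 0.0531), or by 0.11 with loess offsets (adjusted p 0.0495). SOCS3, a feedback inhibitor of STAT3 signalling, changed by -0.36 ± 0.08 (adjusted p 8.36e-04), or by -0.06 with loess offsets (adjusted p 0.160).

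Genes on other chromosomes whose summed loci ran most like a member over the 18 libraries, as a description, were RPP25 for IL11 (Pearson r 0.98), PRKAR2B for CLCF1 (0.99), EIF2S2 for LIF (0.97), GIPC3 for CSF1 (0.97) and CLDND2 for IL24 (0.95). The likeness was lower for CSF2 (CPXM1, 0.87), IL6 (PLPPR4, 0.82) and CSF3 (PLA2G7, 0.78). These points share their libraries, groups and depth.

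The 5 words were searched on both strands in the 300 bases around each peak centre, and they do not depend on the counts. The AP-1 word TGANTCA was in 18 of 96 member peaks (18.8%) and in 17.8% of all peaks, the NF-kB word GGANTTTCC in 3 (3.13%) and 1.38%, the C/EBP word TTGCNNAA in 10 (10.4%) and 14.1%, the STAT word TTCNNNGAA in 7 (7.29%) and 8.70%, and the TEAD word GGAATG in 13 (13.5%) and 21.3%. The 3 member peaks with the NF-kB word were IL6_peak4 (over the IL6 start), CSF1_peak2 and CSF2_peak6, chosen for naming after their sequence was seen. Of the 7 peaks that opened in the cytokine contrast 1, IL11_peak6, held the AP-1 word, and of the 13 that closed 1 did. Counted from the start, the IL6 promoter had the NF-kB word at -72 and the C/EBP word at -155, the IL11 promoter the AP-1 word at -96 and the CSF2 promoter the STAT word at -190. Among 35116 promoters, 7.71% held the AP-1 word, 1.64% the NF-kB word, 10.5% the C/EBP word, 7.66% the STAT word and 14.0% the TEAD word. The median GC content was 56.2% in member windows and 49.7% in all. A match is a string of letters and shows no binding.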

How the data were processed

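Omni-ATAC libraries of Ccd18-Co were analysed from the deposited table of raw fragment counts per consensus peak, which the authors made with the ENCODE ATAC-seq pipeline on hg38, MACS2 peaks merged over conditions, and csaw. The deposited values are counts without normalization. The authors scaled on background bins, which need the reads, so TMM factors over peaks were used. The quasi-likelihood test of edgeR 4.0.16 (R 4.3.3, legacy glmQLFit and glmQLFTest) was run on the counts of all 334857 peaks, with 1 mean per group over 18 libraries, an average log2 CPM over -3, Benjamini-Hochberg adjustment over all peaks and a threshold of 0.05. Counts summed over each gene body and 20 kb either side were tested likewise for 19572 protein-coding genes (GENCODE 44). A standard error is the log2 fold change divided by the root of its F statistic. Loess offsets were fitted with limma 3.58.1, and DESeq2 1.42.0 served as another alternative. Starts are counted from 1. Peaks were named where they cover a start of the gene, were called under belinostat, had the smallest p of their locus or were among its 3 strongest. The peaks, genes, pathway and marker lists were chosen with earlier results of these data known. The test was checked on simulated counts drawn from the DMSO means, with 200 features of higher count changed. These counts held no trend with peak strength, so the check does not cover the scaling or the weak peaks. No batch is given in the labels.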

Additional observations from a re-analysis of the deposited data

Results flagged for a closer look

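In 10 of 126 groups of 6 libraries (34 peaks and 8 summed loci in 3 groups each), 1 library stood apart, meaning that its gap to the nearest other one, as a share of the range of the group on the log2 CPM scale, was above Dixon's 95% critical value. Chance alone sets apart 1 library in about 5% of groups. Belinostat 1 was high for the CSF1 locus (gap 0.785 of the range, 6.10 against 5.81 to 5.87) and low for CSF3_peak9 (0.630). Unstimulated 6 was high for IL24_peak5 (0.740, 5.36 against 4.88 to 5.01) and for CSF2_peak11 (0.6254). Unstimulated 2 was low for CSF1_peak15 (0.825, 2.38 against 2.96 to 3.08), and it enters the cytokine and residual values of that peak directly. It enters the belinostat value of that peak only through the scaling and the estimate of the spread, which all libraries share. DMSO 3 was low for CSF2_peak8 (0.861, -1.21 against 0.44 to 0.70), belinostat 2 was low for the CSF2 start, CSF2_peak7 (0.751), and belinostat 6 was high for IL6_peak5 (0.655). Unstimulated 3 was low for CSF3_peak7 (0.697) and DMSO 5 for the IL24 locus (0.640). Causes were not tested.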

How the results depend on the processing

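The scaling moved the results most, and the cause was not tested. Member peaks opened and closed in the cytokine contrast numbered 15 and 1 with library totals, 2 and 37 with TMM over the weaker 50% of peaks, and 5 and 1 with loess offsets, and in the residual contrast 21 and 11, 0 and 52, and 6 and 2. Summed loci were higher and lower in 3 and 0 genes with totals, 0 and 8 with the weaker peaks, and 3 and 0 with loess offsets after cytokines, and in 1 and 1, 0 and 8, and 1 and 0 in the residual contrast. Of all genes, 26.8% and 31.0% were higher and lower in the residual contrast with totals, and 1.74% and 88.2% with the weaker peaks. Under belinostat 4 members closed with DESeq2 and 0 with the weaker peaks, beside 4.52% and 1.01% of the peaks tested. With 50 kb windows 1 locus was lower, beside 2.98% of all genes. With 5 kb windows 1 locus was higher in the cytokine and 1 in the residual contrast, beside 10.7% and 12.7% of all genes. Leaving out 1 library gave 5 to 10 opened and 7 to 17 closed members after cytokines, 1 to 6 closed and 0 opened under belinostat, and 5 to 10 opened and 18 to 28 closed in the residual contrast. Over all peaks these fits opened 5.52% to 10.7% and closed 6.18% to 11.1% in the cytokine contrast. They opened 0.302% to 0.855% and closed 1.16% to 2.60% under belinostat, and 11.2% to 19.5% and 11.6% to 15.0% in the residual contrast. Lower loci in these fits numbered 3 to 4, 0 to 5 and 6 to 7. Of all genes, 61.1% to 70.4%, 0.634% to 28.1% and 69.5% to 73.0% were lower. One locus was lower under belinostat without DMSO 4, beside 3.15% of all genes.

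Some log2 fold changes reversed. With loess offsets the cytokine values became 0.0251 (IL11_peak13), 0.0128 (IL24_peak5), 0.0716 (CLCF1_peak4), 0.0939 (CLCF1_peak11), 0.0489 (IL11 locus), 0.16 (IL24 locus), 0.0797 (CSF1 locus) and 0.17 (CSF2 locus), and the residual values 0.17 (IL11_peak10), 0.0087 (IL11_peak13), 0.0363 (CLCF1_peak4), 0.0307 (CLCF1_peak11), 0.0714 (CSF1_peak14), 0.0297 (IL11 locus), 0.10 (IL24 locus) and 0.0409 (CSF2 locus). With library totals the cytokine values became 0.12 (IL24 locus), 0.0359 (CSF1 locus) and 0.16 (CSF2 locus), and the residual values 0.0534 (IL24 locus) and 0.0444 (CSF2 locus). With the weaker peaks the cytokine values became -0.33 (CSF3 locus), and the residual values -0.13 (IL24_peak4), -0.0332 (CSF3_peak9) and -0.50 (CSF3 locus). With 5 kb windows the cytokine values became 0.44 (CSF2 locus), and the residual values 0.43 (CSF2 locus). With 50 kb windows the cytokine values became -0.27 (CSF3 locus), and the residual values -0.38 (CSF3 locus). With start peaks alone the cytokine values became 0.0517 (LIF locus), and the residual values 0.49 (CSF2 locus). IL24 and CSF3 have no start peak and gave no value there.

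Of 1280 checks of the 46 called values of named peaks and loci, 1150 kept direction and call. Leave-one-out fits made up most of them, with 785 calls kept and 43 lost. Dropping the filter could not change a call, because all peaks had passed it. With loess offsets 10 of the 46 values kept their call, 22 lost it and 14 changed sign. With library totals 22 kept their call, 21 lost it and 3 changed sign. The replicate numbers showed no pairing of the samples over all peaks. Same-number correlations ran from -0.133 to 0.106 (median 0.0145, over 18 pairs). Those of other numbers ran from -0.219 to 0.263 (median -0.00244, over 90 pairs). Most peaks are weak, so these correlations cannot exclude a pairing. With the replicate number as a block, 7 members opened and 14 closed after cytokines, 0 and 1 under belinostat, and 9 and 22 in the residual contrast. Of all peaks, 9.66% and 10.3%, 0.568% and 1.86%, and 16.2% and 13.8% did so. Under the block IL6_peak4 was called after cytokines (-0.32, adjusted p 0.0486) and CSF1_peak6 in the residual contrast (-0.30, adjusted p 0.0422), where IL11_peak6 was not (1.06, adjusted p 0.0520), and no other call of a named peak or locus changed. Counts of 0 to 15 fragments per library limit what the weak peaks at IL11, CSF2 and CSF3 can show.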
